A study of Mus musculus with 24 samples.

Results

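Liver RNA was compared between birth and weaning in wild-type mice of the vitamin A sufficient diet, on the 5 of 24 arrays that the labels give to these groups. At birth (postnatal day 0) 2 arrays each held liver RNA of 1 litter of C57Bl/6J pups, pooled, with the sex given only as a pooled litter. At weaning (postnatal day 21) 3 arrays held RNA of 1 pool made from 4 male C57Bl/6J mice. The 3 weaning arrays were therefore repeats of 1 sample, their spread is technical, and the comparison set 1 pool of males against 2 litters, so that age and sex of the pools cannot be told apart. All dams had been moved at embryonic day 4.5 from a breeder diet to a defined low fat diet that contained vitamin A, and neither group carried the Cyp1b1 deletion that the study examined. The study as a whole measured 10 groups of age, genotype and diet. Its other mice were Cyp1b1-null, lacking a cytochrome P450 that acts on retinoids and oestradiol, or R-Cyp1b1-null, a substrain of these resistant to obesity induced by diet. Its other diet was a defined diet deficient in vitamin A.

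The liver of a newborn mouse is still a blood-forming organ, in which red cell precursors, granulocytes and megakaryocytes mature between the hepatocytes before this activity passes to the bone marrow. Over the suckling weeks hepatocytes give up fetal products such as alpha-fetoprotein, acquire adult secreted proteins, transporters and drug-oxidising enzymes, and towards weaning switch on enzymes that handle dietary glucose in place of milk fat. In whole liver, fewer cells of a type and less RNA per cell cannot be told apart.

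Values are log2 array signals relative to the 75th percentile of the same array, so 0 is the level of a probe at that percentile and levels are compared between arrays for 1 probe only. The 75th percentile signal was 244.1 and 268.8 on the birth arrays and 375.2, 287.6 and 157.9 on weaning arrays 1, 2 and 3, and between 46.6% and 75.7% of probes were well above background on these arrays, the weaning array of lowest signal being the one with the fewest. Over 30920 probes the birth arrays correlated at r = 0.977 and the weaning arrays at 0.901 to 0.962, and weaning array 3 correlated with the birth arrays at 0.931 and 0.918, above its 0.901 with weaning array 1. Weaning array 3 was scanned on the same day as the birth arrays, on another slide, and weaning arrays 1 and 2 on another day. Elsewhere in the series 2 arrays stood apart, with median correlations to arrays of their age of 0.465 (R-Cyp1b1-null, sufficient, weaning array 3) and 0.753 (wild type, deficient, weaning array 3), against 0.867 to 0.94 for the rest. Neither belongs to this comparison, but both widen the spread that the fit shares over all groups, so the counts of lists are given with and without them.

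Between birth and weaning 376 of 20533 genes changed (1.83% of those tested, limma, Benjamini-Hochberg adjusted p under 0.05). Of these 108 rose (0.526%) and 268 fell (1.31%). When the arrays were scaled on the 75th percentile of the 13022 probes detected on all arrays, 191 genes rose and 156 fell. In all, 11227 genes had a positive and 9237 a negative difference, the background for the signs given below. The other scaling moved the median difference of all genes from 0.14 to 0.47, and quantile normalization moved it to -0.02, so the sign of a small difference depends on the scaling. Without the 2 arrays that stood apart 3436 genes passed (16.7%), of which 1681 rose (8.19%) and 1755 fell (8.55%), and all 376 were among them. Those 2 arrays belong to other groups, so leaving them out alters the spread and not the differences. The direction of a gene could not change by it. Every one of the 376 had the same sign when weaning array 3 alone was set against the birth arrays of its scan day. All 376 also passed with scan day as a block, a fit that counted the weaning pool's 3 arrays as separate samples. For every one of them the 3 weaning arrays lay wholly above or wholly below both birth arrays, which was so for 26.9% (above) and 22.5% (below) of all genes. The 376 were selected for large differences on these same arrays, and weaning array 3 is part of the mean that was tested. The shared sign and the lack of overlap thus follow largely from the selection and are no separate support. Of weaning arrays, leaving out array 3 gave 619 calls. Many changes ran to or from the background: 64 of the genes that rose were not well above background on any birth array, and 35 of those that fell were not well above background on any weaning array. Where a size is given for such a gene, it is a lower bound on the fold, set against the background limit of each array, and written as at least so many fold. The adjusted p printed beside such a bound comes from the readings themselves, those below the limit included, and does not test the bound. A further 57 that fell were well above background on only 1 or 2 of the weaning arrays and 17 that rose on only 1 birth array, and their differences rest in part on readings at background. Of 125 called genes read by more than 1 probe, 34 had probes of opposite sign; the value given is that of the brightest probe. In the plot of birth against weaning signal, albumin lies near the diagonal while the genes that changed leave it on both sides.

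**Figure D1:**
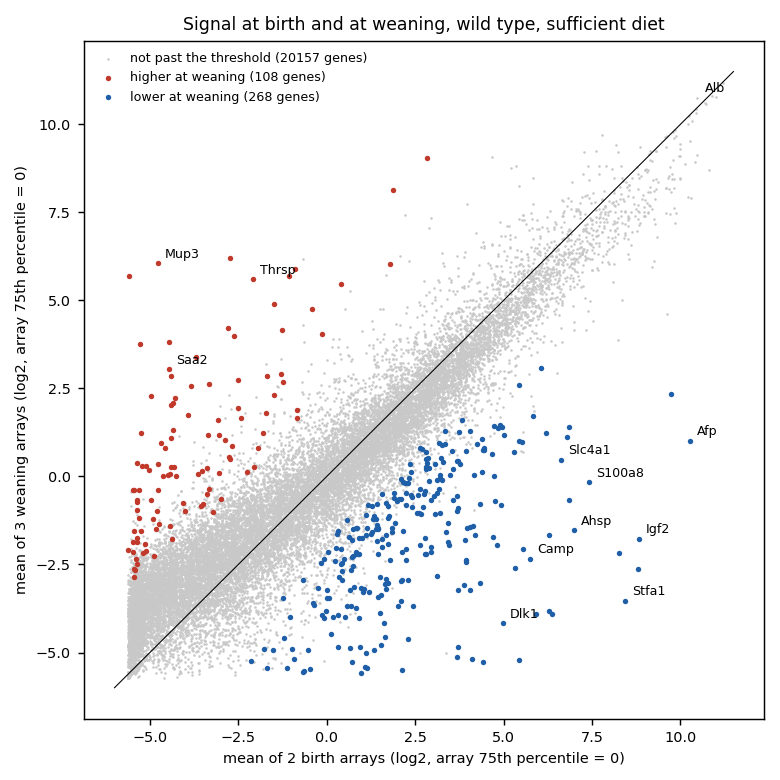
Mean log2 signal of each of 20533 genes on the 2 birth arrays (horizontal axis) and the 3 weaning arrays (vertical axis), both relative to the 75th percentile of the array; the line marks equal signal. Red points are the 108 genes higher and blue points the 268 genes lower at weaning, and 12 genes are named.

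Red cell genes were the list with the most falls. Of 49 measured genes of the erythroid list, which holds globins, heme enzymes, membrane skeleton proteins and erythroid transcription factors, 20 fell and 0 rose, and the list's median difference was -3.48 against 0.14 for all genes (-2.84 against 0.07 with readings below an array's limit set to that limit). Without the 2 arrays that stood apart 37 of the 49 fell. Summed over the list, the linear signal relative to the 75th percentile was 3170 and 4260 on the birth arrays and 647, 838 and 1010 on the weaning arrays.

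Among surface antigens of the red cell, Rhd, which encodes the Rh blood group protein, read 3.83 and 5.01 at birth and -6.09, -4.93 and -4.76 at weaning, and it fell at least 226-fold (adjusted p = 0.000488). Kel, the Kell blood group protease, read 3.03 and 4.32 at birth and -4.91, -5.70 and -4.78 at weaning, and fell at least 135-fold (adjusted p = 0.000797). Both genes were well above background on each birth array and on no weaning array. Icam4, an adhesion molecule of erythroblasts, fell by 4.29, and Ermap, another erythroid membrane protein, by 5.39. Slc4a1, the band 3 anion exchanger of the red cell membrane, read 5.88 and 7.38 at birth and 0.02, 0.18 and 1.22 at weaning (fell by 6.16 ± 0.78, SE; adjusted p = 0.000392), and Ank1, the ankyrin that ties band 3 to the membrane skeleton, fell by 6.94, being well above background on 1 weaning array.

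Ahsp, the chaperone of free alpha globin, read 6.23 and 7.75 at birth and -1.78, -1.58 and -1.20 at weaning, and fell by 8.51 ± 0.88 or 365-fold (adjusted p = 5.92e-05). Hemgn, a nuclear protein of erythroid cells, read 3.02 and 4.41 at birth and -5.93, -5.48 and -3.10 at weaning, was not well above background on any weaning array and fell at least 139-fold (adjusted p = 0.000243). For Ahsp every birth array was above every weaning array by more than 7 log2 units. Of the erythroid regulators, Gfi1b fell by 5.93, Tal1 by 4.67, Nfe2 by 4.14 and the erythropoietin receptor Epor by 3.68, whereas Gata1 (-2.96; adjusted p = 0.357) and Klf1 (-3.44; adjusted p = 0.0683) did not pass in the fit over all arrays and did without the 2 arrays that stood apart (adjusted p = 0.00653 and adjusted p = 0.000745). The abundant globin Hba-a1 read 9.40 and 9.80 at birth and 7.60, 8.01 and 6.80 at weaning, a difference of -2.13 that did not pass (adjusted p = 0.674; adjusted p = 0.00756 without those arrays). The heme synthesis enzyme Alas2 differed by -2.84 (adjusted p = 0.264; adjusted p = 0.00378 without those arrays). The embryonic globins Hbb-y and Hbb-bh1 passed in neither fit.

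The letters just before the start sites of the red cell genes are shown because 4 of the windows that hold the GATA-factor pattern carry it at nearly the same distance from the start. Promoter windows of 250 bases were available for 12 of the 20 erythroid genes that fell, as 13 windows. The pattern AGATAA, read on both strands, occurred in 6 of these 13 windows (46.2%), in 11% of 255 windows of genes that fell, in 9.76% of 82 windows of genes that rose and in 7.19% of 16673 windows of all measured genes. It occurred in 3 of 15 windows (20%) of neutrophil granule genes that fell and in 9.99% of all 32851 windows, of measured genes or not. In Epor, Icam4, Kel and Rhd it ended 48, 37, 50 and 37 bases before the start, in Trim10 and Tal1 157 and 199 bases before. The 120 bases before each start, from RefSeq on build GRCm38.p6, are given on the strand of the gene, with the pattern or its reverse complement in capitals.
Epor (chr9:21963577-21963696, - strand): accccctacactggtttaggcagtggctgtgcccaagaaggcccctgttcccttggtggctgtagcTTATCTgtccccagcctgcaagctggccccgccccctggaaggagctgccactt
Icam4 (chr9:21029312-21029431, + strand): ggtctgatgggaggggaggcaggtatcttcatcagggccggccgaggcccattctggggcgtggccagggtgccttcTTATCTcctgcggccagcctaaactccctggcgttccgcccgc
Kel (chr6:41704326-41704445, - strand): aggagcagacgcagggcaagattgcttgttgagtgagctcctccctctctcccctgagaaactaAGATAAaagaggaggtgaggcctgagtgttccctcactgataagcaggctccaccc
Rhd (chr4:134864416-134864535, + strand): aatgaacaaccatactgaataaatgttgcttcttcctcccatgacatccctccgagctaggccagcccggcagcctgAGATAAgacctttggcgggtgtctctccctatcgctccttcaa
These matches describe letters in the reference and no binding was measured.

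Neutrophil granule genes had the lowest median difference of the 51 lists. Of 26 measured genes of the neutrophil and myeloid granule list 14 fell and 0 rose, 22 fell without the 2 arrays that stood apart, and the median was -4.89 (-3.49 with readings below the limit set to it). The summed linear signal of the list was 1440 and 1630 on the birth arrays and 33.5, 37.8 and 59.5 on the weaning arrays. Of the antimicrobial granule proteins, cathelicidin (Camp) read 5.61 and 5.90 at birth and -2.11, -2.26 and -2.67 at weaning, and fell by 8.10 ± 0.88 or 274-fold (adjusted p = 0.000101). Lactoferrin (Ltf) read 5.06 and 5.60 at birth and -2.38, -2.94 and -2.51 at weaning, and fell by 7.94 ± 0.79 (adjusted p = 4.08e-05). Myeloperoxidase (Mpo), the oxidant-forming enzyme of the primary granule, read 6.71 and 6.97 at birth and -0.29, -0.94 and -0.75 at weaning, and fell by 7.50 ± 0.71 (adjusted p = 3.56e-05). The birth litters differed from each other by less than 1 log2 unit for each of these 3 genes, and Camp and Ltf were well above background on 2 of the 3 weaning arrays. The primary granule protease cathepsin G (Ctsg) fell by 6.77 and neutrophil elastase (Elane) at least 29.4-fold, and neutrophilic granule protein (Ngp), collagenase Mmp8 and Lcn2, which binds bacterial iron carriers, fell by 5.42, 5.38 and 4.87.

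The alarmin pair S100a8 and S100a9, whose proteins form calprotectin, both fell. S100a8 read 7.25 and 7.58 at birth and -0.62, -0.34 and 0.46 at weaning (fell by 7.58 ± 0.80; adjusted p = 6.52e-05). S100a9 read 9.62 and 9.85 at birth and 1.98, 2.21 and 2.80 at weaning (fell by 7.41 ± 0.90; adjusted p = 0.000276). Each fell by more than 7 log2 units, and S100a9 remained above the 75th percentile on every weaning array. The granule protein Chil3 fell by 7.59, Ms4a3 of granulocyte precursors by 6.92 and the repressor Gfi1, which directs granulocyte development, at least 6.84-fold. Proteinase 3 (Prtn3) differed by -0.97 (adjusted p = 0.685) and did not pass, nor did the eosinophil protein Prg2 (adjusted p = 0.389).

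Some of the largest falls were in stefins, small inhibitors of cysteine proteases whose genes lie in 1 cluster on chromosome 16. Stfa1 read 8.23 and 8.62 at birth and -3.34, -3.56 and -3.68 at weaning, and fell by 11.95 ± 1.09 (adjusted p = 2.73e-05), a value that rests in part on background, since only 1 weaning array was well above it. Csta2 read 5.18 and 5.70 at birth and -4.78, -5.90 and -4.95 at weaning, was well above background on no weaning array and fell at least 459-fold (adjusted p = 1.01e-06). Cstdc5, Cstdc4, Stfa2l1 and Stfa2 fell by 10.44, 10.27, 10.12 and 9.81, the last 3 also well above background on 1 weaning array. For Csta1 the brighter of its probes fell by 11.44 and the other differed by 0.74, so its probes disagree. The cluster's genes are close copies, and a probe of one may bind RNA of another, so the share of each gene is uncertain and the fall is that of the family.

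The upstream letters of 4 of these genes are shown to make the likeness visible. The 13-base run ACTCAGCATTTCC was the longest held by at least 6 of the 8 stefin windows of 250 bases, and in the table's 32851 windows it occurred in 3 others, all of cystatin-domain or predicted genes (Csta3, Cstdc3 and Gm7260). In Csta1 and Cstdc5, not shown, the run ends 42 and 108 bases before the start, and the windows of Csta2 and Cstdc4 lack it. In the 150 bases before the starts below, on build GRCm38.p6 and on the strand of each gene, the run is in capitals, and in these 4 it ends 129 to 134 bases before the start.
Stfa1 (chr16:36276998-36277147, + strand): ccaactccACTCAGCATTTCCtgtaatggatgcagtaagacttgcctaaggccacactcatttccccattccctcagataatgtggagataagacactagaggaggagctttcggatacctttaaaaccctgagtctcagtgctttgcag
Stfa2 (chr16:36408364-36408513, - strand): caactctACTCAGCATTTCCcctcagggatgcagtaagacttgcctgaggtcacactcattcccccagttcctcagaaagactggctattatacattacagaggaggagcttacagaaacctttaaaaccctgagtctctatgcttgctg
Stfa2l1 (chr16:36156661-36156810, + strand): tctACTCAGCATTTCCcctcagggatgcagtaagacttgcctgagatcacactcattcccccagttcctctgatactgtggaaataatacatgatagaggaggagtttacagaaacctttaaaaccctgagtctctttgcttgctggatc
Stfa3 (chr16:36455393-36455542, - strand): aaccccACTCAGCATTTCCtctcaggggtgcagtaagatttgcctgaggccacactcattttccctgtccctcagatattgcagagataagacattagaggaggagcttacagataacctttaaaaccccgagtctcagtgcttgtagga
Stfa3 also fell, by 7.95; it was chosen for display after its value was seen.

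Genes of megakaryocytes, the cells that shed platelets, fell in 8 of 19 measured members (median difference -2.41, or -2.08 with readings below the limit set to it; 15 of 19 without the 2 arrays that stood apart), with none higher. Gp9, a subunit of the platelet receptor for von Willebrand factor, read 3.90 and 3.83 at birth and -3.53, -2.89 and -2.82 at weaning, and fell by 6.95 ± 0.53 or 124-fold (adjusted p = 3.74e-06), being well above background on 2 weaning arrays. Of the other subunits of that receptor Gp1ba fell by 5.68 and Gp1bb at least 7.62-fold. Platelet factor 4 (Pf4), a chemokine of the platelet granule, read 6.89 and 6.70 at birth and 0.67, 0.88 and 1.79 at weaning, and fell by 5.68 ± 0.74 (adjusted p = 0.000528). Ppbp, another platelet chemokine, fell by 7.33 and the receptor-like Treml1 by 6.30. Itga2b, the integrin chain of the same lineage, differed by 0.20 (adjusted p = 0.96).

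Of earlier and other blood lineages, 3 of 18 measured progenitor genes fell: the transcription factors Myb (by 5.08) and Lyl1 (by 4.02) and the stem cell factor receptor Kit (by 2.17). Myb was read by 4 probes, which differed by -5.99 to -0.55. Among 15 B lymphocyte genes 3 fell, namely the immunoglobulin heavy chain Ighm (5.56 and 6.10 at birth and 1.22, 1.53 and 2.40 at weaning; adjusted p = 0.00969), the receptor chain Cd79b (by 3.65) and the surface protein Ms4a1 (by 2.92). Of 23 T and natural killer cell genes the granzyme Gzma fell by 4.38 and the interleukin 7 receptor Il7r at least 3.7-fold, while Cd3d (1.43) and Ccl5 (0.00) did not pass; the second Il7r probe differed by 1.53. Of 9 mast cell and basophil genes the histidine decarboxylase Hdc fell by 2.44. No gene of these lists rose in this fit. Without the 2 arrays that stood apart 8 progenitor, 7 B lymphocyte and 6 mast cell genes fell, and of the T and natural killer cell genes 5 fell and 2 rose. In that fit 8.55% of all genes fell and 8.19% rose.

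The lists of resident liver cells given here held no call in the fit over all arrays. In that fit 1.83% of all genes were called, so a count of 0 in lists this small says little. Of 24 measured genes of Kupffer cells, the macrophages of the liver, 0 passed in either direction in the limma fit, and their median difference was -0.36. Clec4f, a receptor found on Kupffer cells, read 3.86 and 3.98 at birth and 4.15, 4.44 and 4.26 at weaning (adjusted p = 0.905), and Marco, a scavenger receptor, 6.95 and 7.26 at birth and 5.30, 5.69 and 6.08 at weaning (adjusted p = 0.642). Without the 2 arrays that stood apart 9 of these 24 fell and 1 rose, where 8.55% of all genes fell and 8.19% rose. Of 22 genes of sinusoidal endothelium and 38 of stellate cells and matrix 0 passed, with medians of -0.12 and 0.04, and without those arrays 1 rose and 2 fell in the former and 3 rose and 2 fell in the latter. The markers of exocrine pancreas had summed signals of 5.71 to 6.92 at birth and 7.96 to 9.95 at weaning, and those of skeletal muscle 6.04 and 32.9 at birth and 5.51 to 9.27 at weaning, so the second birth litter carried more muscle signal. Its part in the results was not tested; 142 genes were called without that litter and 223 without the other one.

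Fetal growth genes and alpha-fetoprotein fell with the blood cell genes. Of 21 measured genes of the fetal liver list 5 fell and 0 rose (13 fell and 1 rose without the 2 arrays that stood apart), with a median difference of -2.17, and of 19 genes of the imprinted growth network 5 fell and, without those arrays, 11, with a median of -2.11 (-1.19 with readings below the limit set to it). Igf2, the fetal insulin-like growth factor, read 9.09 and 8.57 at birth and -2.25, -2.01 and -1.04 at weaning, and fell by 10.60 ± 0.72 or 1550-fold (adjusted p = 1.01e-06). Alpha-fetoprotein (Afp), the main plasma protein of the fetus, read 10.21 and 10.31 at birth and 0.64, 1.02 and 1.37 at weaning, and fell by 9.25 ± 1.07 or 607-fold (adjusted p = 0.000191). Dlk1, a Notch-related surface protein of hepatoblasts, read 4.82 and 5.14 at birth and -4.03, -4.22 and -4.27 at weaning, was well above background on no weaning array and fell at least 333-fold (adjusted p = 6.17e-05). The birth litters differed by less than 1 log2 unit for each of these 3 genes, and all weaning arrays lay far below them.

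Meg3, the non-coding RNA expressed from the other allele of the Dlk1 domain, fell by 4.74 on its brightest probe, while its 5 probes ranged from -4.74 to 0.16. Grb10, an adaptor that dampens insulin receptor signalling, fell by 4.53, the zinc finger gene Plagl1 by 3.25, and the proteoglycan Gpc3, which restrains growth, by 3.46. H19, the non-coding neighbour of Igf2, read 8.44 and 8.04 at birth and 3.95, 4.28 and 3.39 at weaning and did not pass (adjusted p = 0.274; adjusted p = 0.000632 without the 2 arrays that stood apart). Mest (-2.88; adjusted p = 0.0675) and Cdkn1c (-2.16; adjusted p = 0.299) were placed likewise. In the growth hormone and insulin-like growth factor list, 22 genes measured, Igf2 and the receptor Igf1r (by 1.88) fell. Without those arrays 4 fell and 4 rose, where 8.55% of all genes fell and 8.19% rose. Igf1, the postnatal hormone made by the liver, read 2.13 and 3.67 at birth and 6.55, 6.93 and 7.69 at weaning, a difference of 4.16 that passed only without those arrays (adjusted p = 0.0886; adjusted p = 0.000581).

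**Figure D2:**
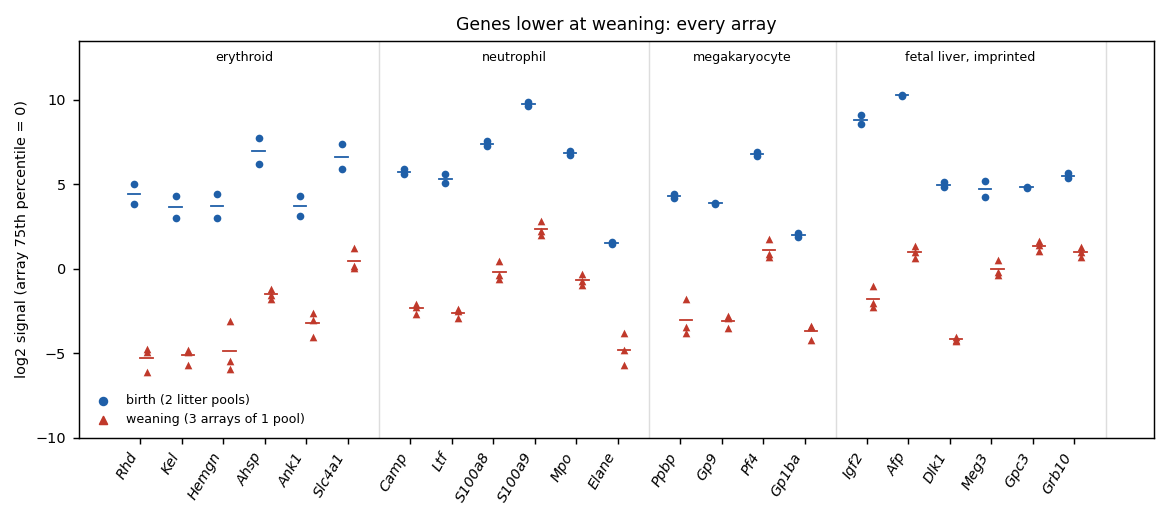
Log2 signal on every array, relative to the array's 75th percentile, for genes that fell: blue circles are the 2 birth litters, red triangles the 3 weaning arrays of 1 pool, and short lines the means. In all 22 genes shown no weaning array reaches the lower birth array, as was so for every gene called lower.

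Genes for cell division were lower at weaning in sign but rarely past the threshold. Of 56 measured genes of the cell cycle list 51 had a negative difference, with a median of -1.96, against 9237 of 20533 genes in all. In the limma fit 1 fell, a share near the 1.31% of all genes: the replication helicase subunit Mcm2 (by 3.01; adjusted p = 0.0496). Without the 2 arrays that stood apart 32 fell, against 8.55% of all genes, and 1 rose. Mki67, the usual marker of cycling cells, read 5.11 and 6.44 at birth and 1.85, 2.25 and 2.77 at weaning (adjusted p = 0.242; adjusted p = 0.00555 without them), and Birc5, an inhibitor of apoptosis made in mitosis, 5.18 and 6.27 at birth and 2.53, 2.90 and 3.27 at weaning (adjusted p = 0.431; adjusted p = 0.0104). Of 33 ribosomal protein genes 31 had a negative difference, with a median of -1.24, and 0 passed; 23 fell without the 2 arrays. The glucose transporter Slc2a3 fell by 5.65, hexokinase 1 (Hk1), the isoform of fetal liver and blood cells, by 3.69 on the brightest of 6 probes (-3.69 to 1.79), and the lactate carrier Slc16a3 by 3.00, all from a list of glycolysis genes and fetal isoforms in which 3 of 26 fell (5 fell and 2 rose without those arrays).

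Of the 108 genes that rose 29 belonged to a list, mostly lists of hepatocyte functions, and of the 268 that fell 65 did. The lists hold 1215 different genes, beside 20533 genes tested. Of the 6 measured major urinary proteins, pheromone carriers that male mouse liver secretes, 4 rose, with and without the 2 arrays that stood apart, with a median difference of 6.78 over the 6 (5.66 with readings below the limit set to it). Mup3 read -5.00 and -4.57 at birth and 5.52, 5.93 and 6.70 at weaning, and rose at least 688-fold (adjusted p = 0.000639). Mup4 read -5.03 and -5.52 at birth and 3.16, 3.46 and 4.63 at weaning, and rose at least 139-fold (adjusted p = 0.00038). Mup1 and Mup5 rose at least 105-fold and at least 24.4-fold. None of these 4 was well above background on either birth array and all were on each weaning array. The weaning pool was male, and these genes are near-identical copies, so neither the sex nor the single gene behind each probe can be separated here.

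Among enzymes that oxidise drugs, amines and alcohols few passed the test. Of 40 flavin, aldehyde and alcohol enzymes 2 rose, among them the retinol-active alcohol dehydrogenase Adh4 (by 4.16; adjusted p = 0.0485), and 16 rose without the 2 arrays that stood apart. Of 37 cytochrome P450 genes of families 1 and 2, 31 had a positive difference (median 1.63), 1 rose and 0 fell, and 15 rose without those arrays. The gene was Cyp2d13, which read -3.31 and -4.37 at birth and 2.19, 2.55 and 3.00 at weaning, and rose at least 62-fold (adjusted p = 0.000797). Cyp1a2 (-2.89 and -2.56 at birth and 2.52, 2.93 and 0.34 at weaning; adjusted p = 0.193; adjusted p = 0.00117) and Cyp2e1 (5.72 and 5.32 at birth and 6.98, 7.31 and 7.55 at weaning; adjusted p = 0.576; adjusted p = 0.00262) passed only without those arrays.

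In families 3 and 4 the median was -0.32 over 18 genes, and it lay between -0.04 and 0.01 under the other scalings, with 1 gene higher (2 rose and 3 fell without the 2 arrays that stood apart). Without those 2 arrays 8.19% of all genes rose and 8.55% fell. Cyp4f14, which oxidises leukotrienes, read -0.32 and -1.82 at birth and 5.27, 5.55 and 6.29 at weaning, and rose by 6.77 ± 1.23 or 109-fold (adjusted p = 0.00699). Cyp3a16, the fetal form of its family, read 4.99 and 4.78 at birth and 3.51, 3.67 and 3.62 at weaning (adjusted p = 0.726), and Cyp3a11, the adult form, 3.76 and 3.34 at birth and 4.86, 5.23 and 3.25 at weaning (adjusted p = 0.849). Neither passed in either fit. Of 40 conjugating enzymes 35 had a positive difference (median 1.47) and 1 rose, the nicotinamide methyltransferase Nnmt, which read -0.48 and -2.05 at birth and 3.73, 4.04 and 4.68 at weaning and rose by 5.42 ± 0.93 (adjusted p = 0.00469); 15 rose without those arrays. The sulfotransferase Sult2a5, outside the lists, rose at least 43.8-fold (adjusted p = 0.000809).

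Carriers of the plasma membrane rose in 4 of 30 measured cases and fell in none (8 rose and 1 fell without the 2 arrays that stood apart). Without those 2 arrays 8.19% of all genes rose and 8.55% fell. Slc22a7, an organic anion transporter of the hepatocyte, read -3.83 and -1.73 at birth and 3.84, 4.28 and 4.56 at weaning, and rose by 7.01 ± 1.26 (adjusted p = 0.00661), being well above background on 1 birth array. Its relatives Slc22a30 and Slc22a28 rose by 5.25 and 4.22, and Slc17a4 by 3.93. Mfsd2a, which imports lysophosphatidylcholine carrying docosahexaenoic acid, read -5.02 and -4.91 at birth and 1.84, 2.27 and 2.75 at weaning, and rose at least 50.6-fold (adjusted p = 0.000473). Of 32 genes of bile acid synthesis and transport 2 rose: the uptake carrier Slco1a4 (-3.97 and -4.59 at birth and 2.28, 2.58 and 1.85 at weaning; adjusted p = 0.00288) and Abcg8, a subunit of the pump that moves sterols into bile, by 3.15. Without those arrays 10 of the 32 rose and 1 fell. Both birth readings of Slco1a4 lay below the background limits of the birth arrays (-3.19 and -3.56), so the size of its rise rests on background readings. Cyp7a1, the rate-limiting enzyme of bile acid synthesis, read 0.04 and 1.11 at birth and 1.36, 1.70 and 2.24 at weaning and did not pass (adjusted p = 0.713).

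Few genes of fat synthesis and thyroid hormone response rose in the fit over all arrays, which calls mainly large differences. Of simulated log2 changes it found 10% at 2 and 58% at 4. Thrsp, a nuclear protein of lipogenic tissues induced by thyroid hormone and carbohydrate, read -2.47 and -1.69 at birth and 6.00, 6.34 and 4.49 at weaning, and rose by 7.69 ± 1.76 or 207-fold (adjusted p = 0.0328). Dio1, the deiodinase that forms active thyroid hormone, read -1.25 and 0.42 at birth and 4.44, 4.82 and 5.05 at weaning, and rose by 5.18 ± 1.14 (adjusted p = 0.0253). Thrsp and Dio1 were the 2 of 11 thyroid hormone response genes that rose (3 without the 2 arrays that stood apart, where 8.19% of all genes rose).

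Thrsp was also the 1 of 35 lipogenesis genes that rose, 14 rising and 3 falling without the 2 arrays that stood apart (median 1.55). Stearoyl-CoA desaturase Scd1 read -0.44 and -0.90 at birth and 5.96, 6.35 and 6.23 at weaning (adjusted p = 0.111; adjusted p = 0.000146 without them) and fatty acid synthase Fasn 4.21 and 5.13 at birth and 8.53, 9.05 and 9.61 at weaning (adjusted p = 0.307; adjusted p = 0.00258). In both genes every weaning array was above both birth arrays, as in 26.9% of all genes, although the fit over all arrays did not call them. Without the 2 arrays that stood apart 8.19% of all genes rose and 8.55% fell. All 27 cholesterol synthesis genes had a positive difference (median 1.57), as 11227 of 20533 genes did in all, and 0 passed, 5 without those arrays. Of 35 genes of fatty acid oxidation and ketone synthesis 28 had a negative difference (median -0.50) and 0 passed, 8 falling without those arrays, among them Pdk4, which blocks glucose oxidation (3.06 and 2.16 at birth and -0.83, -0.57 and 0.27 at weaning; adjusted p = 0.155; adjusted p = 0.00661).

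Of 43 amino acid catabolism genes 2 rose, Tdo2, the first enzyme of tryptophan breakdown (0.61 and -3.62 at birth and 4.55, 4.86 and 5.25 at weaning; rose by 6.39 ± 1.43; adjusted p = 0.0279), and proline dehydrogenase Prodh (by 4.22; adjusted p = 0.0377). Tdo2 was well above background on 1 birth array. Without the 2 arrays that stood apart 6 of the 43 rose and 1 fell, where 8.19% of all genes rose and 8.55% fell. Slc1a2, a glutamate carrier of pericentral hepatocytes, rose by 3.79, as 1 of 15 pericentral genes, all 15 of which had a positive difference (median 1.76) and 9 of which rose without those arrays. Pigr, the receptor that moves immunoglobulin A into bile, was the 1 of 15 periportal genes that rose (by 4.66), 2 without those arrays. The urea cycle enzyme Cps1 (0.37; adjusted p = 0.939) did not pass.

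Plasma proteins split by gene. Albumin (Alb) read 10.47 and 10.50 at birth and 10.41, 10.85 and 11.04 at weaning, a difference of 0.28 (adjusted p = 0.948), and of 21 adult secreted proteins 0 passed in the limma fit, 4 being higher without the 2 arrays that stood apart. Of 24 acute phase genes 3 rose and 2 fell, and without those arrays 8 rose and 4 fell, where 8.19% of all genes rose and 8.55% fell. The serum amyloid Saa2 read -5.28 and -3.62 at birth and 2.64, 2.94 and 3.58 at weaning, and rose at least 86-fold (adjusted p = 0.00906), and the orosomucoids Orm2 and Orm1 rose at least 75-fold and by 6.42. Lcn2 and the interleukin 1 antagonist Il1rn (by 4.46) fell. Complement C9, the pore-forming component, read -5.21 and -3.60 at birth, below the background limits of the birth arrays (-3.19 and -3.56). At weaning it read 0.86, 1.18 and 1.20, and it rose (adjusted p = 0.0174), the size resting on background readings. It was the 1 of 24 complement genes to pass (6 rose and 1 fell without the 2 arrays that stood apart), while C3 differed by 0.00. Hamp2, a copy of the iron hormone hepcidin, read -1.40 and -4.06 at birth and 5.64, 5.96 and 7.03 at weaning, and rose by 8.94 ± 1.80 (adjusted p = 0.0141), being well above background on 1 birth array, whereas hepcidin itself (Hamp) read 7.05 and 6.96 at birth and 3.38, 3.79 and 5.30 at weaning and did not pass (adjusted p = 0.635). The opposite signs of Hamp and Hamp2 were not tested against each other.

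**Figure D3:**
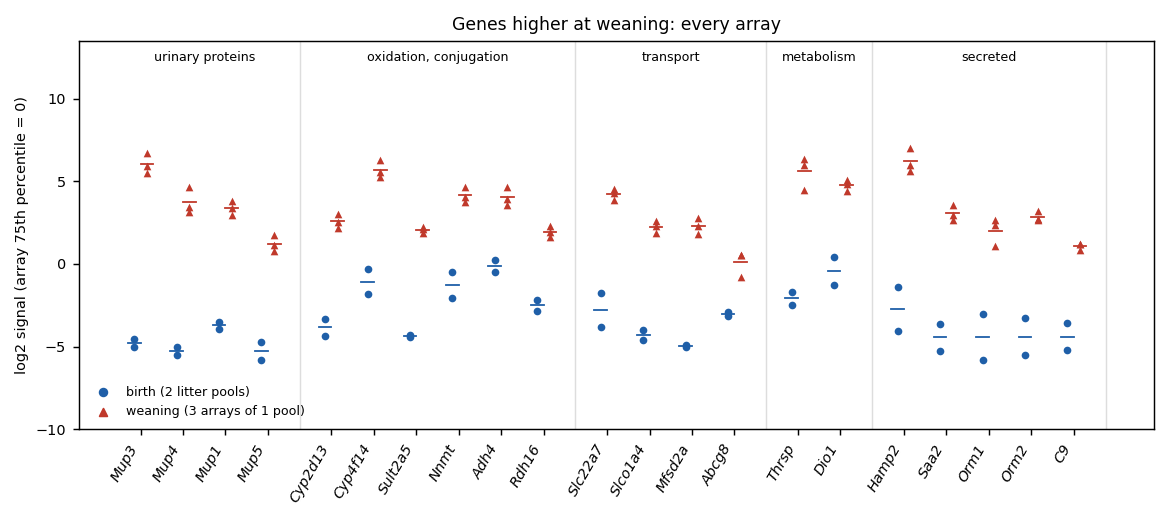
Log2 signal on every array, relative to the array's 75th percentile, for genes that rose: blue circles are the 2 birth litters, red triangles the 3 weaning arrays of 1 pool, and short lines the means. In all 21 genes shown every weaning array is above both birth arrays, as was so for every gene called higher. The birth litters differ by over 2 log2 units for several, among them Hamp2 and Orm1.

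Vitamin A is the nutrient that the study varied, and the retinoid genes are given here on the diet that supplied it. Of 36 measured genes of retinoid metabolism and signalling 1 rose, Rdh16, a dehydrogenase that oxidises retinol (-2.20 and -2.82 at birth and 1.92, 2.27 and 1.62 at weaning; rose by 4.45 ± 0.88; adjusted p = 0.0127), and 9 rose and 3 fell without the 2 arrays that stood apart. Without those 2 arrays 8.19% of all genes rose and 8.55% fell. Cyp26a1, which degrades retinoic acid, read -5.20 and -4.20 at birth and -1.60, -1.36 and -1.80 at weaning (adjusted p = 0.093; adjusted p = 0.00517 without the arrays that stood apart). Its birth readings lay below the background limits of the birth arrays (-3.19 and -3.56). Cyp1b1, the gene deleted in the study's mutants, was well above background on neither birth array and read -4.99 and -4.32 at birth and -2.40, -2.40 and -2.65 at weaning (adjusted p = 0.369). The retinoic acid receptor Rarb read 0.48 and 0.69 at birth and 0.06, 0.27 and 0.39 at weaning (adjusted p = 0.842).

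Sex-linked genes showed what the pools contained. Xist, the RNA that silences an X chromosome in females, read 2.61 and 4.10 at birth and -4.72, -5.59 and -4.69 at weaning (adjusted p = 0.0518), and the Y-linked Ddx3y 1.75 and 0.64 at birth and 1.12, 1.55 and 1.98 at weaning and Eif2s3y 1.41 and 0.11 at birth and 1.36, 1.68 and 2.04 at weaning. Xist was thus high in both litters and at the limit in the weaning pool, and the Y-linked genes were present in all 5 arrays. The weaning pool is labelled male.

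The promoter windows of the genes that changed were also described by composition. Windows were matched for 68 of the 108 genes that rose (82 windows), 199 of the 268 that fell (255 windows) and 13298 of all measured genes (16673 windows). The median window of 250 bases held 3 CpG dinucleotides in genes that rose, 6 in genes that fell and 13 in all measured genes. The TATA pattern TATAAA occurred in 15.9%, 12.5% and 8.86% of windows in the same order, the C/EBP-type pattern TTGCNNAA in 20.7%, 10.2% and 8.22%, CCAAT in 47.6%, 30.2% and 35%, CACGTG in 9.76%, 6.67% and 7.54%, and TTTGAA in 15.9%, 11.4% and 11.9%, all read on both strands. In the 15 windows of the neutrophil granule genes that fell, TTGCNNAA occurred in 7 (46.7%). Over all 32851 windows, of measured genes or not, the median was 6 CpG, with TATAAA in 12.4% and TTGCNNAA in 9.56%. The genes that fell were close to these 3 values and differed in them only from the measured genes. In all windows CCAAT occurred in 33.8%, CACGTG in 6.02% and TTTGAA in 16%. These shares are descriptions without a test.

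The same interval was measured in 3 other pairs of groups that share no array with this one, although all pairs share 1 estimate of spread and the wild-type pairs share slides. In wild-type mice of the deficient diet 2330 genes changed (11.3%), and they held 363 of the 376 (96.5% of the 376 and 15.6% of the 2330) in the same direction. In Cyp1b1-null mice of the sufficient diet 610 changed (2.97%), holding 278 (73.9% and 45.6%), and in Cyp1b1-null mice of the deficient diet 980 changed (4.77%), holding 332 (88.3% and 33.9%). No gene was called in opposite directions in any of these pairs, and 267 of the 376 (71%) were called in all 4. The deficient wild-type pair includes 1 of the 2 arrays that stood apart, and without both arrays 6959 genes changed in it (33.9%), holding 2636 of the then 3436 calls here (76.7% and 37.9%) in the same direction; 1402 were then called in all 4 pairs. Cyp4f14 differed by 6.77 here and by 6.74, 6.74 and 8.12 in the deficient wild-type, sufficient null and deficient null pairs, Camp by -8.10 and -6.82, -5.32 and -7.86, Ahsp by -8.51 and -8.54, -7.74 and -7.96, and Afp by -9.25 and -9.42, -4.21 and -6.17. The cholesterol synthesis median was 1.57 here and 0.60, -0.17 and 1.46 in the other pairs in the same order, a difference that was not tested.

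**Figure D4:**
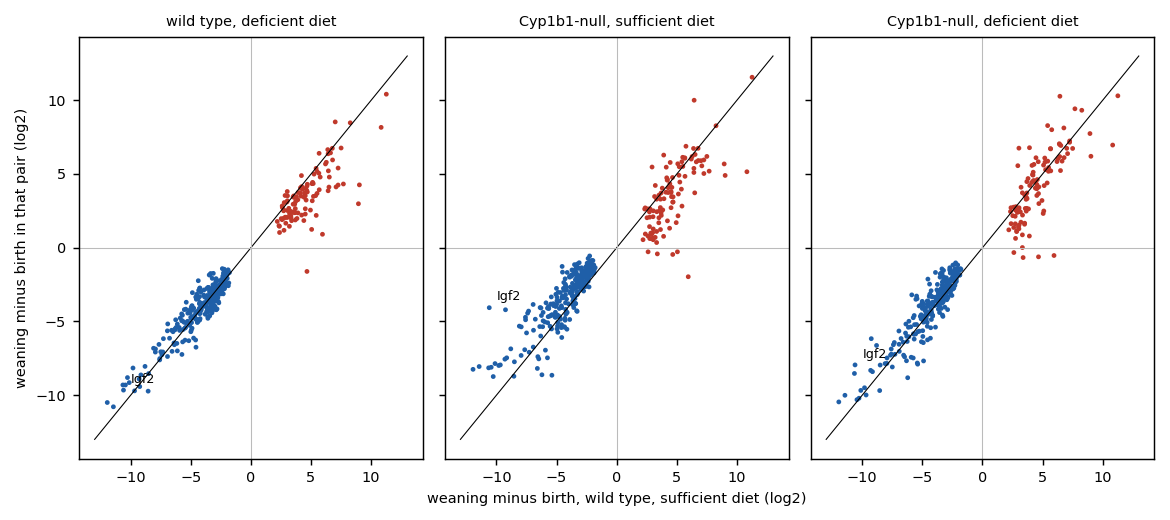
Weaning minus birth (log2) for the 376 genes that changed here (horizontal axis) against the same difference in each of the 3 other pairs of groups (vertical axes); red genes rose and blue genes fell here, and the diagonal marks equal change. Nearly all points share their sign: 375, 371 and 372 of 376 from left to right, and Igf2 lies off the diagonal in the middle panel.

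**Figure D5:**
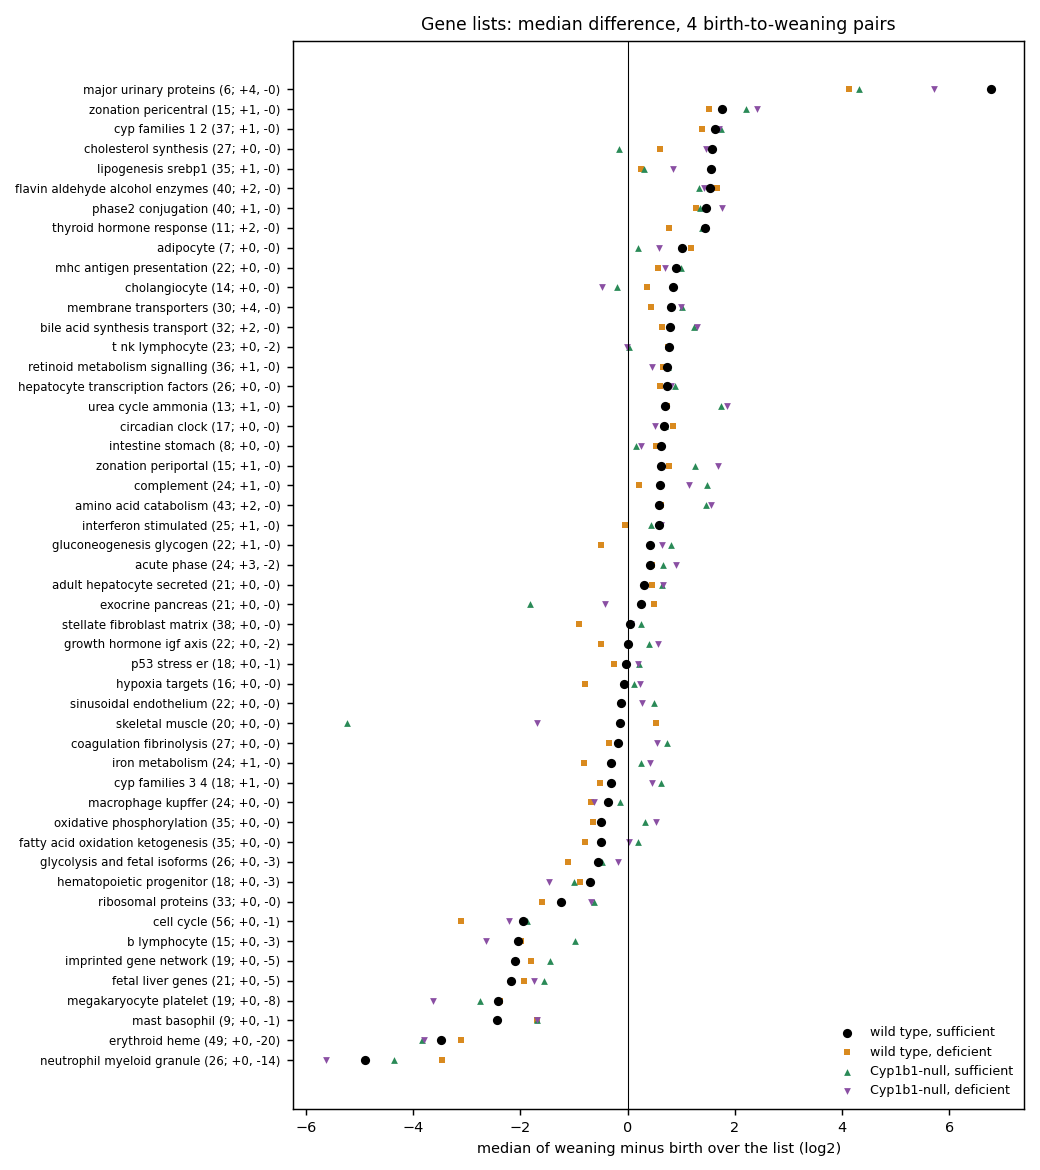
Median of weaning minus birth (log2) over each gene list with at least 6 measured genes, for the comparison described here (black circles) and the 3 other pairs; in brackets the number of measured genes and, after plus and minus, how many rose and fell here. Neutrophil and erythroid lists lie lowest and the major urinary proteins highest in the black circles.

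Whether the change differed between groups was tested directly. No gene differed from the change in wild-type mice of the deficient diet (0 of 20533, limma, with 91 at an unadjusted p under 0.05). From the change in Cyp1b1-null mice of the sufficient diet 2 genes differed (0.00974% of genes; 435 at an unadjusted p under 0.05). This count was 26 once both arrays that stood apart were left out (0.127%), 166 with array weights, 90 with the replicate block and 0 under quantile normalization. The replicate block counted the weaning pool's 3 arrays as separate samples. Igf2 differed by -10.60 here and by -4.07 there, a difference of -6.53 ± 0.93 (SE; adjusted p = 0.0288). In the null mice it read 7.72 and 7.88 at birth and 3.80 and 3.67 at weaning, so their weaning arrays were above all 3 wild-type weaning arrays. Kdm5d, a Y-linked demethylase, differed by 0.58 here and by 5.69 there, a difference of -5.11 ± 0.63 (SE; adjusted p = 0.00931), and read -7.43 and -7.67 on the null birth arrays against -2.18 and -2.53 on the wild-type ones; the null birth values lie below the background limits of those arrays (-5.89 and -5.83), so the size of this difference rests on background readings. On the same null birth arrays Xist read 4.08 and 3.18 and Ddx3y -7.72 and -3.90. All Cyp1b1-null arrays, as distinct from R-Cyp1b1-null ones, were scanned on a day of their own, so scan day and genotype cannot be told apart in these 2 tests.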

How the data were processed

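Liver RNA was labelled with 1 dye and hybridised to Agilent mouse arrays of 45018 spots. Per the file headers, the authors scanned the arrays and extracted them with Agilent Feature Extraction 10.7.3.1, and the deposited values are background-subtracted linear intensity values per spot. The authors' series table holds the same intensity values, within a relative difference of 0.00497. From these, log2 intensity minus the array's 75th percentile was computed here from the deposited signals without control spots and the 2048 spots marked as outliers; repeated spots were averaged, and a probe was kept if, in 1 group or more, all arrays had it well above background (30920 probes). Genes were named through the RefSeq table, and the brightest probe stood for a gene (34 of 125 called genes with more than 1 probe had probes of opposite sign).

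The 3 arrays of the weaning pool were averaged, and limma 3.58.1 in R 4.3.3 was fitted to 22 samples of all 10 groups (12 residual and 4 prior degrees of freedom), with Benjamini-Hochberg adjusted p under 0.05 over 20533 genes. The spread shared over groups mixes litters, pools and repeated arrays, so p-values measure that spread. The errors after ± are standard errors of that fit. The number of arrays limits the precision, and without the 2 arrays of low correlation 3436 genes passed in place of 376. In simulated data of this contrast with 50 genes changed per size among 20215, the share found was 0% at a log2 change of 1, 10% at 2, 58% at 4 and 78% at 6, with calls in 2 of 20015 unchanged genes.

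The comparison, the 51 gene lists and the tests were chosen with earlier results of these data known. Named genes are marker genes of the lists, the 15 largest rises and 15 largest falls with a symbol that is not a predicted name, up to 4 called members per list and direction, and for tests between groups the 6 called genes of smallest p. Stfa3 lies outside that rule and was chosen after its value was seen, as were some further called members of lists given beside these (Ank1, Icam4, Ermap, Gfi1b, Tal1, Nfe2, Gp1bb, Ms4a3, Gfi1 and Plagl1). Some genes that the rule names are not reported here. Promoter letters come from RefSeq windows on GRCm38.p6. The arrays' own probe design refers to another build, so no probe coordinates are given.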

Additional observations from a re-analysis of the deposited data

Results flagged for a closer look

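The change between birth and weaning differed between wild-type and Cyp1b1-null mice of the sufficient diet for 2 genes by the test of the difference itself. For Igf2 the difference of the changes was -6.53 on the log2 scale, with a lower weaning level in wild type. For Kdm5d it was -5.11, with values below the background limit on the null birth arrays beside Xist at 4.08 and 3.18 there. The Cyp1b1-null arrays were scanned on another day than all wild-type arrays, and the parts of genotype, scan day and litter composition cannot be told apart. Under quantile normalization, with or without normexp background correction, no gene passed this test.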

How the results depend on the processing

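The number of genes called (376) was within 1.5 times of itself under normexp with quantile normalization, quantile normalization, either 75th percentile, no filter, the mean of probes, the authors' table and weaning array 3 alone. It was 231 in wild-type groups only and 2657 in the 2 groups compared only. It was 3436 without the 2 arrays of low correlation, 4215 with array weights, 1526 with the pool's arrays as replicates and 1120 with slide as a random block (correlation 0.186). Leaving out each array in turn gave 142 to 619. With replicate number as a block it was 2770; the numbers do not pair the arrays (deviations of same-numbered arrays correlated at -0.071 and -0.04). Alternatives chosen after seeing the data gave 2668 with scan day as a block, 4888 with that block and without the 2 arrays, 2880 within scan day 2 without the 2 arrays, and 2517 with quantile normalization without them. Of the 376, 56 passed in all 23 alternatives, and 374 kept their sign in all, the exceptions being Dock10 and Irak3. Alternatives that alter only the spread, such as wild-type groups only or the 2 groups compared only, could not change a sign. Fits with slide, replicate number or scan day as a block counted the pool's 3 arrays as separate samples.

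For the difference from the deficient diet the count of 0 became 1 with slide as a random block, and 2 with scan day as a block or within scan day 2, both without the 2 arrays. For the difference from null mice the count of 2 became 0 under both quantile settings, 1 with no filter, the mean of probes or within scan day 2, 26 without the 2 arrays, 166 with array weights and 90 with the replicate block. It became 5 with scan day as a block, 55 with that block without the 2 arrays, 21 within scan day 2 without them and 10 with quantile normalization without them, and 0 to 2 when single arrays were left out. Genes called in all 4 pairs numbered 1402 without the 2 arrays. Of named genes, 2 that had not passed were called with the opposite sign: Itga2b at -1.25 (adjusted p = 0.0292; scan day as a block, without the 2 arrays) and Serpinc1 at 0.72 (adjusted p = 0.0302; quantile normalization without them). Values of opposite sign numbered 255 over 73 named genes, none of them called here. The cause of these shifts was not tested. In data simulated for the fit over all groups no difference of 1 log2 unit was found. Called genes well above background on no birth array or no weaning array carry bounds only, or readings without a size.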

Other observations

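Outside the lists, several small families rose or fell together; they were chosen after their values were seen. The X-linked Bex genes, small proteins linked to growth factor signalling, fell on every probe chosen: Bex2 by 5.74, Bex1 by 5.10, Bex3 by 4.96 and Bex4 by 4.43. Bex2 read 4.62 and 5.23 at birth and -1.07, -0.84 and -0.54 at weaning, and Bex3 6.36 and 6.01 at birth and 0.69, 1.18 and 1.81 at weaning. All birth arrays were above all weaning arrays in each of these 4 genes, as in every gene called lower.

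Among the rises, the murinoglobulins Mug1 and Mug2, protease-binding plasma proteins of rodents, read 2.89 and 2.78 at birth and 8.50, 8.84 and 9.77 at weaning and 2.00 and 1.74 at birth and 7.73, 8.11 and 8.59 at weaning, and rose by 6.20 (adjusted p = 0.00707) and 6.27 (adjusted p = 0.0123). The acetyltransferase relatives Nat8f2 and Nat8f4 rose at least 12.7-fold and by 3.51, the apolipoprotein L genes Apol9b and Apol9a by 5.08 and at least 6.29-fold, and the organic anion carriers Slc22a29 and Slc22a26 by 5.67 and 3.21. Notum, which inactivates Wnt proteins, read -4.91 and -3.75 at birth and 0.81, 0.88 and -0.90 at weaning and rose at least 12.5-fold (adjusted p = 0.0183). Members of these families resemble each other, and their probes may share RNA.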
